A study of Mus musculus with 30 samples.

Results

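The Myc family comprises 3 genes, Myc, Mycn and Mycl, which were taken by symbol from a count table of 54134 rows, and all 3 were among the 12149 genes with enough counts to be tested. They were followed in 30 RNAseq libraries of mouse Bruce4 embryonic stem cells (ESCs) on their way to neuromesodermal progenitors (NMPs), the tail end cells that form both spinal cord and mesoderm. Wildtype cells, and Nr6a1-/- cells of 1 clone in which CRISPR/Cas9 had deleted part of exon 4 on each allele, were both grown in FGF2 from the outset after feeder cells had been removed. The Wnt agonist CHIR99021 was added at d2, and libraries were made just before this (d2), 12 h (d2.5) and 24 h (d3) after it, and after another 24 h in FGF2 and CHIR99021 alone (d4) or together with the growth factor Gdf11 (d4G). There were 3 replicates of each stage and genotype, 10 groups in all, and because there was 1 Nr6a1-/- clone, genotype and clone cannot be told apart.

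Myc, Mycn and Mycl encode basic helix-loop-helix leucine zipper proteins that bind DNA at E-boxes as dimers with Max and raise transcription of genes for ribosome production, nucleotide synthesis, metabolism and the cell cycle. Max also pairs with Mxd and Mnt proteins, which repress through the same sites, so the output depends on the balance of partners. In the embryo, Myc and Mycn sustain growth and proliferation of epiblast and tailbud progenitors and can partly replace each other, while Mycl is the least studied of the 3. Their mRNAs are short-lived, and Myc is a classic Wnt target in intestinal cells.

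In GRCm38, the build that the labels call mm10, Myc is on chromosome 15 (61985391 to 61990374, plus strand), Mycn on chromosome 12 (12936093 to 12941914, minus strand) and Mycl on chromosome 4 (122995652 to 123002485, plus strand). GENCODE M21 placed 0 other genes within the span of any of them, so their counts have no annotated overlapping or antisense partner. Libraries were primed from the poly(A) tail, and reads were therefore expected from the last exons, which are 61989346 to 61990350 for Myc, 12936093 to 12937610 for Mycn and 122999905 to 123002485 for Mycl in the longest annotated transcripts. Levels are counts of a gene scaled to the library's total (CPM), comparable for 1 gene across libraries and not between genes.

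Mycn was the member that moved most, and the DNA just upstream of it is shown for that reason. The RefSeq promoter table (GRCm38.p6) held windows of 300 bases for 2 of the 3 members, Mycn and Mycl. The part of the Mycn window that lies outside the annotated transcript, chr12:12941915-12942086 on the minus strand, is given here from 5′ to 3′, with capitals at 2 copies of TTTGGCGC, the core letters of an E2F site.

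Mycn upstream: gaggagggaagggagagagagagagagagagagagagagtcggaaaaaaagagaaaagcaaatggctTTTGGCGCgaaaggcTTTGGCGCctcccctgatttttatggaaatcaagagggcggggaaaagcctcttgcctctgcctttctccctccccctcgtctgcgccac

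These letters were chosen after the window had been read. On either strand, TTTGGCGC was found in 0.514% of the 32851 promoter windows of this length. The E-box CACGTG (7.15% of all windows), the TCF/LEF letters CTTTGAT (3.73%) and the nuclear receptor element TCAAGGTCA (0.423%) had no match in the Mycn or the Mycl window, which says only that those letters are not in these 300 bases.

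Library totals ran from 1570714 to 3688197 counts. Behind each value in a single library stood 10 to 99 counts for Myc, 69 to 670 for Mycn and 19 to 66 for Mycl, so that Mycn was measured with the smallest counting error. Nr6a1 counts could not check the genotype, since the deletion is internal and reads come from the 3′ end. The summed level of 5 NMP markers rose from 11.0 to 14.3 CPM in d2 wildtype to 663 to 708 CPM in d3 wildtype libraries, and from 7.59 to 10.9 to 917 to 1050 CPM in Nr6a1-/-. By epiblast markers, 1 library stood apart from its group: in d4 wildtype replicate 2, 4 such markers summed to 620 CPM, against 74.5 and 71.1 CPM in replicates 1 and 3. The called tests of Myc and Mycn that rest on this library, and counts of activated targets, are given below with and without it. Most other values that include it, such as those of single listed genes, are given only with it. Over genes with 10 or more counts in a pair of libraries, d4 Nr6a1-/- replicate 1 differed most from its replicates. Chi-square per gene was 5.64 and 6.68 against replicates 2 and 3, and 2.58 between replicates 2 and 3. Runs without d4 Nr6a1-/- replicate 1 enter only the ranges given below over alternatives and libraries left out. By the labels, d4 libraries carry 4 sample indices that d4G libraries also carry and 2 that d3 libraries carry, while the genotypes of a stage share 0. Libraries of 1 index cannot be pooled together, so in the steps from d3 to d4 in Nr6a1-/- and from d4 to d4G in both genotypes pool and stage may not be told apart. The d3 and d4 wildtype libraries share 0 indices, which does not show that they were pooled together. The same limit may thus hold for the wildtype step from d3 to d4. The pool of each library is not given in the sources used here. In bulk RNA, fewer cells that express a gene and less RNA per cell cannot be told apart.

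Mycn had its highest level at d2 and fell steeply in the 12 h after CHIR99021 was added. There was no d2.5 or d3 library without CHIR99021. In the steps from d2 to d2.5 and on to d3, for any gene, CHIR99021 and time in culture therefore cannot be told apart. In wildtype cells it stood at 150, 169 and 179 CPM at d2 in replicates 1 to 3, and at 33.3, 35.1 and 37.9 CPM at d2.5. The Nr6a1-/- libraries held 246, 251 and 254 CPM at d2 and 35.7, 45.5 and 52.2 CPM at d2.5. No d2.5 library reached any d2 library in either genotype. The fall was 4.68-fold in wildtype (log2 -2.23, SE 0.138, FDR = 3.81e-15) and 5.61-fold in Nr6a1-/- (log2 -2.49, SE 0.126, FDR = 4.56e-18). Here and below, FDR is the Benjamini-Hochberg adjusted p of edgeR's quasi-likelihood test over the 12149 genes. The change was not shown to differ between genotypes (difference of log2 changes -0.26, SE 0.191, FDR = 0.616).

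Mycn then climbed again in both genotypes. At d3 the wildtype libraries held 46.3, 47.0 and 41.2 CPM and the Nr6a1-/- libraries 71.9, 87.7 and 78.5 CPM. The step from d2.5 to d3 passed the threshold in Nr6a1-/- (log2 0.83, SE 0.134, FDR = 1.73e-05) but not in wildtype (0.34, SE 0.157, FDR = 0.179), although the difference between those steps did not pass it (0.49, SE 0.207, FDR = 0.303). By d4 Mycn had reached 75, 111 and 99.1 CPM in wildtype and 183, 186 and 169 CPM in Nr6a1-/-. Both rises from d3 were called, by 2.14-fold in wildtype (log2 1.10, SE 0.134, FDR = 7.66e-08, and 0.98 with FDR = 1.88e-06 without d4 wildtype replicate 2) and by 2.26-fold in Nr6a1-/- (log2 1.18, SE 0.121, FDR = 1.42e-09). With Gdf11 in the last 24 h, Mycn stood at 49.3, 65 and 62 CPM in wildtype and at 89.9, 79.0 and 71.2 CPM in Nr6a1-/-. Every d4G library was thus below every d4 library of its genotype. The log2 change was -0.70 in wildtype (SE 0.128, FDR = 6.14e-05, and -0.58 with FDR = 0.00166 without d4 wildtype replicate 2) and -1.17 in Nr6a1-/- (SE 0.124, FDR = 3.17e-09), a difference that did not pass the threshold (-0.46, SE 0.179, FDR = 0.185).

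**Figure D1:**
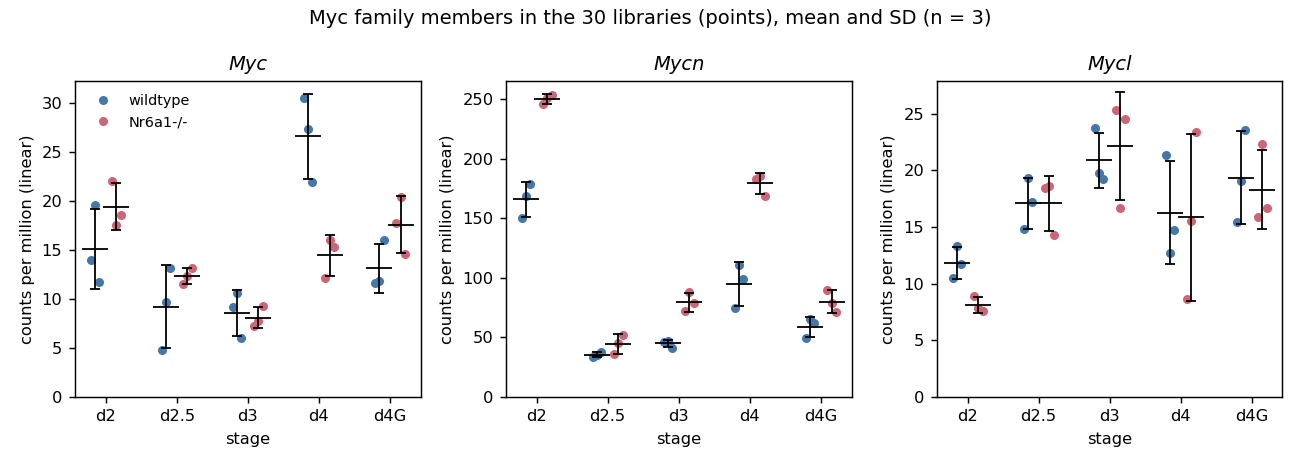
Level of Myc, Mycn and Mycl in CPM (linear axis, a separate scale per gene) in each of the 30 libraries by stage, wildtype in blue and Nr6a1-/- in red, with the mean and SD of 3 replicates in black. Mycn drops between d2 and d2.5 and lies higher in Nr6a1-/- at d2, d3, d4 and d4G, while the 3 d4 wildtype libraries hold the highest Myc group mean (26.6 CPM).

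Across the genotypes, Mycn was higher in Nr6a1-/- cells at d2, d3, d4 and d4G. There, all 3 Nr6a1-/- libraries lay above all 3 wildtype libraries, whereas at d2.5 the ranges overlapped. The difference was 1.51-fold at d2 (log2 0.59, SE 0.112, FDR = 0.000665), 1.77-fold at d3 (0.82, SE 0.138, FDR = 5.81e-05) and 1.87-fold at d4 (0.90, SE 0.117, FDR = 2.58e-07). Without d4 wildtype replicate 2 the d4 difference was 1.01 (FDR = 1.86e-07). The d4G difference was smaller (1.36-fold, log2 0.44, SE 0.136, FDR = 0.0367) and depended on single libraries. It no longer passed the threshold without d4G wildtype replicate 1 (0.33, FDR = 0.215) or 3 (0.47, FDR = 0.0629), or without d4G Nr6a1-/- replicate 1 (0.34, FDR = 0.228) or 2 (0.45, FDR = 0.0745), and its FDR ran from 0.0194 to 0.228 over 13 alternatives. At d2.5 the difference was 0.33 (SE 0.153, FDR = 0.22).

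Myc followed another course. It stood at 14, 19.6 and 11.7 CPM in wildtype and at 22.1, 17.6 and 18.6 CPM in Nr6a1-/- cells at d2. At d2.5 the values were 4.76, 9.65 and 13.2 CPM in wildtype and 11.5, 12.3 and 13.2 CPM in Nr6a1-/-, and at d3 they were 9.17, 10.6 and 6 CPM and 7.23, 7.70 and 9.30 CPM. Genotypes overlapped at d2.5 and d3 as well as at d2. The step from d2 to d2.5 was -0.69 on the log2 scale in wildtype (SE 0.269, FDR = 0.0567) and -0.64 in Nr6a1-/- (SE 0.225, FDR = 0.0333). Both depended on single libraries. The wildtype step passed the threshold without d2 wildtype replicate 3 (-0.86, FDR = 0.0325) or d2.5 wildtype replicate 3 (-1.04, FDR = 0.013), while the Nr6a1-/- step did not pass it without d2 Nr6a1-/- replicate 1 (-0.57, FDR = 0.109) or d2.5 Nr6a1-/- replicate 1 (-0.62, FDR = 0.0839) or 2 (-0.65, FDR = 0.072). Over 13 alternatives each, FDR ran from 0.013 to 0.371 and from 0.0141 to 0.188. So 12 h of CHIR99021 was not followed by a called rise of Myc in either genotype.

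At d4, Myc was lower in Nr6a1-/- cells, at the same stage at which Mycn was higher in them. Wildtype libraries held 30.5, 27.4 and 21.9 CPM of Myc, and Nr6a1-/- libraries 12.1, 16.0 and 15.3 CPM. These ranges did not overlap. The difference was 1.82-fold (log2 -0.87, SE 0.212, FDR = 0.00294), with FDR from 0.00108 to 0.0168 over 13 alternatives, and -0.85 (FDR = 0.0114) without d4 wildtype replicate 2. The rise from d3 to d4 was 3.10-fold in wildtype (log2 1.63, SE 0.235, FDR = 1.94e-06, and 1.61 with FDR = 1.48e-05 without d4 wildtype replicate 2) and 1.78-fold in Nr6a1-/- (0.83, SE 0.265, FDR = 0.0181). In Nr6a1-/- the rise failed the threshold once replicate 1 (0.75, FDR = 0.0718) or 2 (0.79, FDR = 0.0557) of d3, or replicate 2 (0.75, FDR = 0.0705) or 3 (0.78, FDR = 0.0644) of d4, was left out, and over 13 alternatives FDR ran from 0.0143 to 0.0718. The difference between these rises did not pass the threshold (-0.80, SE 0.365, FDR = 0.209).

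Under Gdf11, Myc was the only member whose change was called as different between genotypes, a call that depended on single libraries. At d4G it stood at 11.6, 11.8 and 16.0 CPM in wildtype, below every d4 wildtype library, and at 17.8, 20.4 and 14.6 CPM in Nr6a1-/-, which overlapped the d4 Nr6a1-/- libraries. The change from d4 to d4G was -1 on the log2 scale in wildtype (SE 0.214, FDR = 0.000466, and -0.97 with FDR = 0.00258 without d4 wildtype replicate 2) and 0.26 in Nr6a1-/- (SE 0.241, FDR = 0.506). The difference between both changes was 1.26 (SE 0.323, FDR = 0.0222) and was 1.24 (FDR = 0.0425) without d4 wildtype replicate 2. It failed the threshold without d4 wildtype replicate 1 (1.17, FDR = 0.0546), d4G wildtype replicate 1 (1.19, FDR = 0.0609) or 2 (1.18, FDR = 0.0706), or d4G Nr6a1-/- replicate 1 (1.24, FDR = 0.0547) or 2 (1.16, FDR = 0.0688), with FDR from 0.0122 to 0.0706 over 19 alternatives. At d4G itself the genotypes differed by 0.39 (SE 0.243, FDR = 0.409).

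Mycl was the most even member, and no genotype difference was called at any stage. It stood at 10.5, 13.3 and 11.7 CPM in wildtype at d2 and at 8.94, 7.86 and 7.59 CPM in Nr6a1-/-, ranges that did not overlap although the difference did not pass the threshold (log2 -0.54, SE 0.296, FDR = 0.383). At d2.5 it held 14.8, 19.3 and 17.2 CPM in wildtype and 18.4, 18.6 and 14.3 CPM in Nr6a1-/-. Both genotypes were thus higher than at d2 in every library, by a called 2.11-fold in Nr6a1-/- (log2 1.07, SE 0.270, FDR = 0.00289) and by an uncalled 0.54 in wildtype (SE 0.267, FDR = 0.142). The difference between both steps did not pass the threshold (0.54, SE 0.383, FDR = 0.604). From d3 onwards Mycl lay between 8.66 CPM, in d4 Nr6a1-/- replicate 1, and 25.3 CPM, in d3 Nr6a1-/- replicate 1. The step from d3 to d4 in Nr6a1-/- was -0.49 (SE 0.235, FDR = 0.133) and passed the threshold without d4 Nr6a1-/- replicate 3 (-0.90, FDR = 0.0108). Genotypes differed on the log2 scale by 0.002 at d2.5 (SE 0.244) and 0.10 at d3 (SE 0.225, 95% interval -0.37 to 0.57). The d4 difference was 0.01 (SE 0.241, -0.49 to 0.51) and that of d4G -0.11 (SE 0.244, -0.62 to 0.40). The interval at d4 rests on a spread estimated over all 10 groups. On that spread it leaves out a difference as large as that of Mycn (0.90) or Myc (-0.87) at this stage. The 3 Nr6a1-/- libraries there spread more widely, over 8.66, 15.5 and 23.4 CPM (SD 7.39, the largest of any group for Mycl). The interval may therefore be too narrow at d4.

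**Figure D2:**
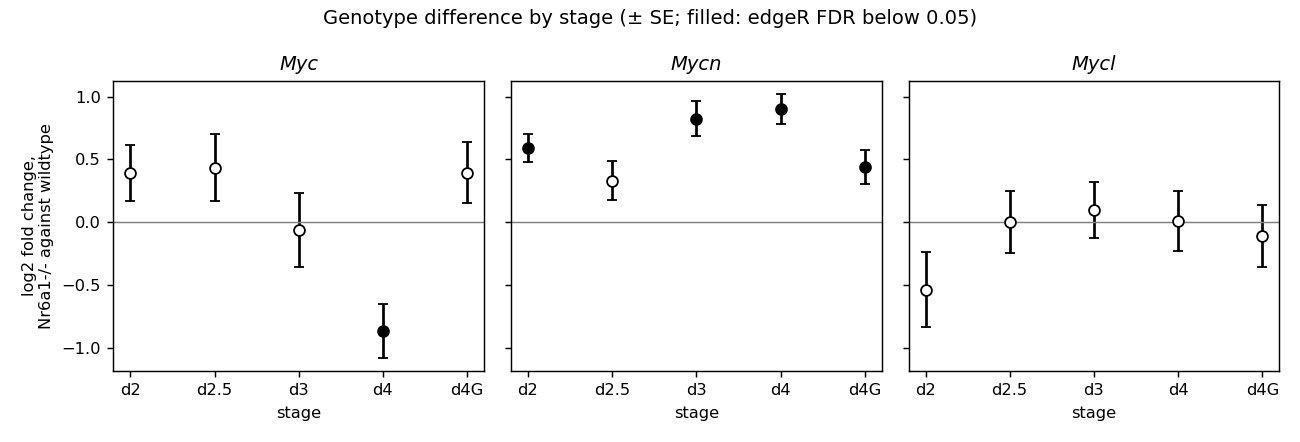
Log2 fold change of Nr6a1-/- against wildtype (vertical axis) for each member at each stage, with the standard error as bars and filled points where edgeR's FDR was below 0.05. Mycn is above 0 at all stages, with its largest value at d4 (0.90), where Myc is at -0.87 and Mycl at 0.01.

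Set side by side, 1 of 3 members was called between genotypes at d2, where 4.07% of all tested genes were called, and 0 of 3 at d2.5 (6.45%). Later stages had 1 called member at d3 (10.8%), 2 at d4 (18.9%) and 1 with Gdf11 (7.9%). At d2.5, 1 of 3 had an unadjusted p below 0.05 in edgeR and 0 of 3 were called by DESeq2. Of the steps in wildtype cells, 1 of 3 members was called from d2 to d2.5 (25.4% of all tested genes), 0 from d2.5 to d3 (11.5%, with 1 at an unadjusted p below 0.05 and 0 by DESeq2), 2 from d3 to d4 (21.1%) and 2 from d4 to d4G (28.8%). In Nr6a1-/- cells 3 were called from d2 to d2.5 (24.1%), 1 from d2.5 to d3 (15.9%), 2 from d3 to d4 (25.9%) and 1 from d4 to d4G (18.0%). Of the differences between genotypes in a step, 1 of 3 was called for d4G against d4 (2.66%). For the steps d2.5 against d2 (0.609%, of which 0.173% lower), d3 against d2.5 (0.815%) and d4 against d3 (5.72%), 0 of 3 were called by edgeR or DESeq2, with 0, 1 and 1 at an unadjusted p below 0.05. With 3 members, these counts are no measure of enrichment. Neighbouring steps, and steps and genotype comparisons, share libraries.

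Ordered by group mean, Mycn spanned 7.04-fold from d2 Nr6a1-/- (250 ± 3.99 CPM, SD, n = 3) to d2.5 wildtype (35.5 ± 2.32). Between these lay, from high to low, d4 Nr6a1-/- (179 ± 9.37), d2 wildtype (166 ± 14.8), d4 wildtype (95 ± 18.4), d4G Nr6a1-/- (80 ± 9.41), d3 Nr6a1-/- (79.3 ± 7.93), d4G wildtype (58.8 ± 8.31), d3 wildtype (44.8 ± 3.16) and d2.5 Nr6a1-/- (44.5 ± 8.33). Libraries of neighbouring groups did not overlap in 4 of 9 places, namely between d2 Nr6a1-/- and d4 Nr6a1-/-, d2 wildtype and d4 wildtype, d3 Nr6a1-/- and d4G wildtype, and d4G wildtype and d3 wildtype.

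Myc spanned 3.30-fold, from d4 wildtype (26.6 ± 4.35 CPM) to d3 Nr6a1-/- (8.07 ± 1.09), and neighbours overlapped in all 9 places. The groups between were d2 Nr6a1-/- (19.4 ± 2.38), d4G Nr6a1-/- (17.6 ± 2.90), d2 wildtype (15.1 ± 4.09), d4 Nr6a1-/- (14.5 ± 2.06), d4G wildtype (13.1 ± 2.49), d2.5 Nr6a1-/- (12.3 ± 0.867), d2.5 wildtype (9.19 ± 4.21) and d3 wildtype (8.59 ± 2.35). Mycl spanned 2.73-fold, from d3 Nr6a1-/- (22.2 ± 4.77 CPM) to d2 Nr6a1-/- (8.13 ± 0.717), and the lowest pair, d2 wildtype (11.8 ± 1.40) over d2 Nr6a1-/-, was the 1 of 9 places where neighbours did not overlap. The remaining Mycl means ran from 15.9 ± 7.39 (d4 Nr6a1-/-) to 20.9 ± 2.42 CPM (d3 wildtype). Mycl was thus lowest at the stage where Mycn was highest. Over the 10 group means of log2 CPM, Pearson's r was -0.776 between Mycn and Mycl, 0.585 between Myc and Mycn and -0.559 between Myc and Mycl. These are descriptions over groups that share a genotype or a stage.

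The balance of Myc and Mycn was read as the log2 ratio of their counts within a library, which does not depend on depth or scaling. In d4 wildtype libraries the ratio was -1.30, -2.02 and -2.18, and in d4 Nr6a1-/- libraries it was -3.92, -3.54 and -3.46, so that Nr6a1-/- cells held less Myc for each Mycn transcript by 1.81 on the log2 scale (-3.64 ± 0.243 against -1.83 ± 0.470, SD, n = 3 each). At d3 the ratio was -3.30 ± 0.216 in Nr6a1-/- and -2.42 ± 0.324 in wildtype, a difference of -0.88 without overlap. The genotypes overlapped at d2 (-3.69 ± 0.191 in Nr6a1-/- and -3.49 ± 0.416 in wildtype), d2.5 (-1.84 ± 0.181 and -2.07 ± 0.664) and d4G (-2.19 ± 0.208 and -2.17 ± 0.266). From d2 to d2.5 the ratio shifted towards Myc by 1.42 in wildtype and 1.86 in Nr6a1-/-. From d2.5 to d3 it fell by 1.46 in Nr6a1-/- without overlap, and from d4 to d4G it rose by 1.45 in Nr6a1-/- without overlap, while the wildtype ratio changed by -0.36 and -0.33 at these steps with overlap. Groups did not overlap in 6 of 13 comparisons. With 3 libraries against 3, the 2-sided exact permutation test cannot go below p = 0.1, which is the p of each of those 6 comparisons (0.217 after Benjamini-Hochberg adjustment over 13), so that no difference in the ratio could pass 0.05.

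**Figure D3:**
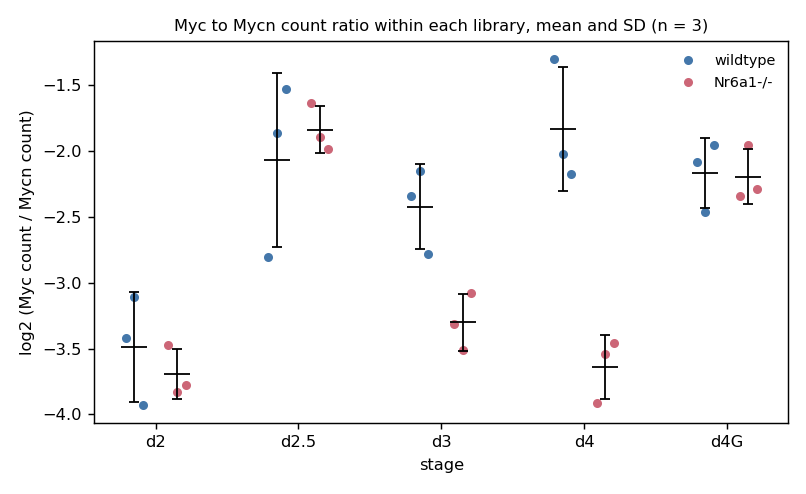
Log2 ratio of Myc to Mycn counts in each library (vertical axis) by stage, wildtype in blue and Nr6a1-/- in red, with the mean and SD of 3 replicates in black. The genotypes do not overlap at d3 and d4 and meet again at d4G (-2.17 in wildtype and -2.19 in Nr6a1-/-).

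Of the relatives and neighbours of the family, 2 of 4 listed genes were tested. Bmyc, which encodes a shortened Myc-like protein without the DNA binding region, rose in d4 Nr6a1-/- cells to 70.9 ± 6.99 CPM against 55.0 ± 2.49 CPM in wildtype (log2 0.37, SE 0.103, FDR = 0.00949). It also rose from d3 to d4 (0.36, SE 0.105, FDR = 0.0108) and fell from d4 to d4G (-0.55, SE 0.111, FDR = 0.000329) in Nr6a1-/- cells. Pvt1, a long noncoding RNA downstream of Myc on chromosome 15 (62037986 to 62378096), was lower in Nr6a1-/- at d3 (8.18 ± 1.55 against 14.6 ± 4.64 CPM, log2 -0.83, SE 0.271, FDR = 0.0427) and d4 (5.62 ± 0.777 against 10 ± 3.02 CPM, -0.84, SE 0.304, FDR = 0.0491). Since 5 other annotated genes overlap Pvt1 and 1 overlaps Bmyc, the counts of both are uncertain. Mycs, an X-linked retrogene, had at most 1 count in a library.

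Of the dimerisation partners, Max ran from 31.2 ± 1.68 CPM in d2 wildtype to 50.2 ± 3.76 CPM in d4G Nr6a1-/- and was called in none of the 17 comparisons by edgeR. Of the 9 network genes tested of 10 listed, 1 was called between genotypes at d4 and 0 at the other 4 stages, where 1 (d2), 0 (d2.5), 0 (d3) and 2 (d4G) had an unadjusted p below 0.05 and 0 were called by DESeq2. Of all tested genes 18.9% were called at d4 and 4.07% to 10.8% at the other stages, and these counts say nothing particular about the network. The gene called at d4 was Mxi1, a repressive Max partner, at 14.3 ± 4.91 CPM in Nr6a1-/- against 6.99 ± 1.37 CPM in wildtype (log2 0.99, SE 0.274, FDR = 0.00848). Mxi1 was higher at d4 than at d3 (1.30, SE 0.295, FDR = 0.00099) and lower at d4G than at d4 (-1.31, SE 0.311, FDR = 0.00223) in Nr6a1-/- cells. In wildtype cells the repressive partners Mxd1 and Mxd4 were higher at d4G than at d4, both at low levels. Mxd1 went from 1.83 ± 0.235 to 5.35 ± 2.03 CPM (1.53, SE 0.429, FDR = 0.00634), and Mxd4 from 3.54 ± 1.02 to 7.10 ± 1.32 CPM (1.03, SE 0.345, FDR = 0.0227). Mga, a Max partner of a repressive complex, fell from d2 to d2.5 in wildtype (-0.36, SE 0.110, FDR = 0.0141) and in Nr6a1-/- (-0.38, SE 0.106, FDR = 0.00733) and rose from d4 to d4G in Nr6a1-/- (0.39, SE 0.113, FDR = 0.0127). Mnt, another repressive partner, fell from d2 to d2.5 in Nr6a1-/- (-0.70, SE 0.214, FDR = 0.0142). Mxd3, Mlx and Mlxip had no call in any comparison, and Mlxipl was too low to test.

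Among 11 cofactors of Myc proteins, 0 were called between genotypes at any stage by edgeR or DESeq2, with 1 at an unadjusted p below 0.05 in each comparison but d4G, which had 0. Of all tested genes 4.07% (d2) to 18.9% (d4) were called, so with 11 genes these counts say nothing particular about the cofactors. With Gdf11 in wildtype cells, Trrap, a scaffold of acetyltransferase complexes (0.80, SE 0.143, FDR = 4.43e-05), and the chromatin remodeller Ep400 (0.44, SE 0.115, FDR = 0.0037) rose, and the helicase Ruvbl1 fell (-0.27, SE 0.0911, FDR = 0.0224). In Nr6a1-/- cells Trrap also rose (0.46, SE 0.151, FDR = 0.0274) and Ruvbl1 fell (-0.30, SE 0.0962, FDR = 0.0247), while Ep400 was not called (0.29, SE 0.118, FDR = 0.0895). At this step 28.8% of all tested genes were called in wildtype and 18% in Nr6a1-/-. Of 9 genes that act on Myc protein stability, 2 were called between genotypes at d4 (22.2%, against 18.9% of all tested genes), both higher in Nr6a1-/-: Gsk3b, the kinase that marks Myc for degradation and that CHIR99021 inhibits (0.39, SE 0.107, FDR = 0.00786), and the ubiquitin ligase Huwe1 (0.42, SE 0.117, FDR = 0.00995). Gsk3b was also higher at d2.5 (0.36, SE 0.111, FDR = 0.0404), and Skp2, a ubiquitin ligase subunit, at d3 (0.34, SE 0.114, FDR = 0.0458), with 0 of the 9 called at d2 or d4G by edgeR or DESeq2 (0 and 1 at an unadjusted p below 0.05). At d2 and d4G, 4.07% and 7.9% of all tested genes were called. Gsk3b rose with Gdf11 in wildtype (0.86, SE 0.106, FDR = 6.84e-08) and Nr6a1-/- cells (0.59, SE 0.106, FDR = 7.53e-05). Protein levels were not measured.

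A list of 64 genes known to be raised by Myc proteins, chiefly of ribosome biogenesis, one-carbon and nucleotide synthesis, glycolysis and the cell cycle, was followed through the same comparisons, and all 64 were tested. From d3 to d4 in wildtype cells, the step at which both Myc and Mycn rose, 23 targets were called higher and 3 lower, that is 35.9% and 4.69% of the list against 9.77% and 11.3% of all tested genes, with a median log2 change of 0.20 (0.001 over all tested genes). Ldha, which makes lactate from pyruvate, had the largest of these rises (1.19, SE 0.0898, FDR = 1.09e-12), and the transferrin receptor gene Tfrc rose by 0.58 (SE 0.0957, FDR = 1.72e-05). The counts were 19 and 3 without d4 wildtype replicate 2, and 15 were higher without d3 wildtype replicate 3. Myc and Mycn were both called higher from d3 to d4 in Nr6a1-/- cells too, Myc with the reliance on single libraries given above. In these cells the step had 11 targets higher and 15 lower (13.6% and 12.3% of all tested genes), with a median of -0.05. The 11 became 5 to 7 when any d3 Nr6a1-/- library, or replicate 2 or 3 of d4, was left out, and 4 (with 9 lower) when the fit held only the libraries compared. The change was lower in Nr6a1-/- than in wildtype for 14 targets and higher for 1, where 2.75% and 2.97% of all tested genes were so called. These counts were 12 and 1 without d4 wildtype replicate 2, and 9 were lower without d3 Nr6a1-/- replicate 1 or with only the libraries compared in the fit.

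At d4, 16 of the 64 targets were lower and 5 higher in Nr6a1-/- cells, 25% and 7.81% of the list against 9.18% and 9.7% of all tested genes, and a median of -0.09 (0.02 over all tested genes). The largest falls were those of Nip7, a ribosome assembly factor, at 205 ± 24.1 against 350 ± 14.1 CPM (-0.77, SE 0.0891, FDR = 2.26e-08), Srm, the spermidine synthase, at 121 ± 23.5 against 204 ± 12.3 CPM (-0.76, SE 0.0995, FDR = 3.18e-07), and the nucleolar helicase Ddx21, at 308 ± 22.9 against 499 ± 44.0 CPM (-0.70, SE 0.0759, FDR = 5.51e-09). The largest rise was that of Ccnd2, the cyclin D2 gene, at 2340 ± 146 against 1050 ± 179 CPM (1.16, SE 0.121, FDR = 2.15e-09). Without d4 wildtype replicate 2, 12 targets were lower and 4 higher, and 10 were lower without d4 Nr6a1-/- replicate 2 and 3 higher without d4 wildtype replicate 3. With only the 6 libraries compared in the fit, 6 were lower and 2 higher.

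At the other stages the counts differed. At d3, 10 targets were higher and 2 lower in Nr6a1-/- cells (4.47% and 6.3% of all tested genes), the largest rises being those of Tfrc (152 ± 15.2 against 77.7 ± 6.18 CPM, 0.97, SE 0.0953, FDR = 2.13e-09), the complex I assembly factor Ndufaf4 (0.79, SE 0.0938, FDR = 1.25e-07) and hexokinase 2, Hk2 (0.64, SE 0.0936, FDR = 7.76e-06). The counts higher and lower were 2 and 5 at d2 (1.35% and 2.72%), 4 and 5 at d2.5 (2.86% and 3.59%) and 5 and 3 at d4G (3.28% and 4.63%). The step from d4 to d4G in wildtype cells, at which Myc and Mycn both fell, had 31 targets lower and 2 higher (14.5% and 14.3% of all tested genes), with a median of -0.29, and the largest falls were Tmem97 (-1.02, SE 0.104, FDR = 1.2e-09), Srm (-0.88, SE 0.1, FDR = 1.65e-08) and the nucleolar protein gene Npm1 (-0.87, SE 0.0904, FDR = 1.88e-09). Without d4 wildtype replicate 2, 29 targets were lower and 2 higher. In Nr6a1-/- cells, where Mycn fell and Myc did not, 9 were lower and 1 higher (9.59% and 8.45%), with a median of -0.11. The earlier steps had 13 lower and 5 higher (d2.5 against d2, 12.1% and 13.3%) and 21 lower and 1 higher (d3 against d2.5, 5.56% and 5.91%) in wildtype, and 17 lower and 4 higher (11.2% and 12.9%) and 9 lower and 3 higher (8.45% and 7.43%) in Nr6a1-/-. Of the higher counts, the 5 of the first step became 2 without d2.5 wildtype replicate 1 and 3 without d2 wildtype replicate 3, the 4 became 2 without d2 Nr6a1-/- replicate 1, and the 3 became 1 without d2.5 Nr6a1-/- replicate 3. The 21 became 13 without d3 wildtype replicate 3, the 9 became 5 without d2.5 Nr6a1-/- replicate 2, and the 10 higher at d3 became 6 without d3 wildtype replicate 2. The 5 higher at d4G became 2 without d4G wildtype replicate 1 or 2 and 3 without d4G Nr6a1-/- replicate 1 or 3. From d2.5 to d3, Mycn had no called change in wildtype and rose in Nr6a1-/-. Whether the list moved with a member was not tested at any step.

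**Figure D4:**
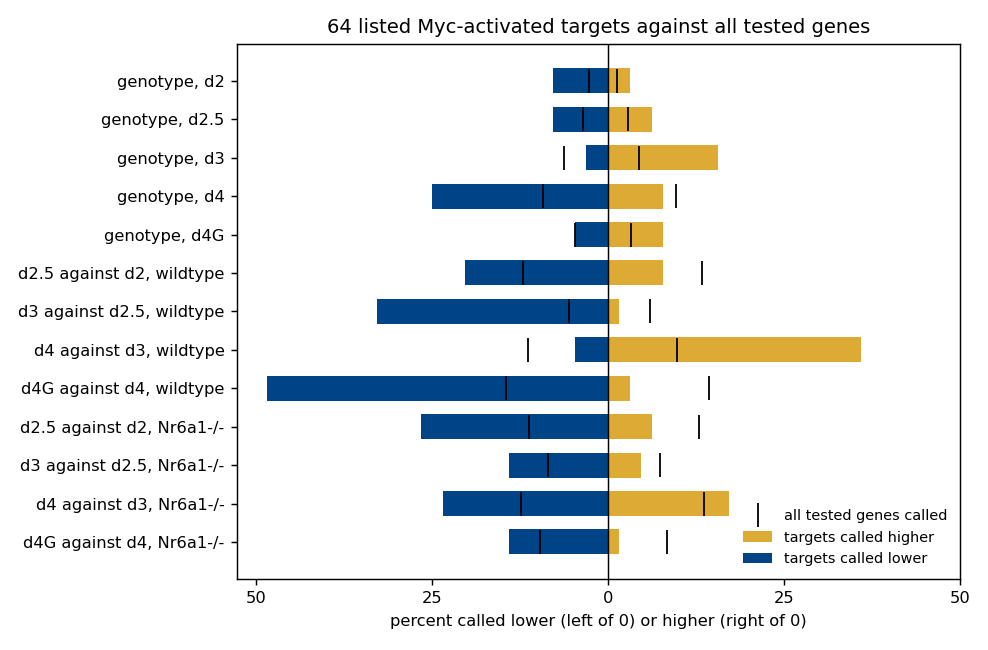
Percent of the 64 listed Myc-activated targets called lower (left, blue) or higher (right, yellow) in each comparison of genotypes and each step, with black ticks at the percent of all tested genes called in that direction. The targets called higher stand furthest above the tick in d4 against d3 in wildtype (35.9% against 9.77%), and those called lower in d4G against d4 in wildtype (48.4% against 14.5%).

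Of the 64 targets, 4 lie on chromosome 8 (Nip7, Slc7a5, Mcm5 and Farsa), on which 23.1% to 30.5% of 655 tested genes were called lower in Nr6a1-/- at each stage, against 1.54% to 7.98% of the tested genes placed elsewhere. They make up 3 of the 5 targets called lower at d2, 4 of 5 at d2.5, 2 of 2 at d3, 2 of 16 at d4 and 3 of 3 at d4G. The part of chromosome 8 in these calls was not tested further, and no member of the Myc family lies on it. Markers of other cells differed between genotypes at d4 too. The 4 epiblast markers summed to 71.1, 74.5 and 620 CPM in wildtype and 84.9 to 87.8 CPM in Nr6a1-/-, 3 endoderm markers to 58.9 to 77.7 and 18.2 to 24.7 CPM, 3 neural markers to 16.2 to 21.4 and 2.17 to 3.87 CPM, and 3 presomitic mesoderm markers to 195 to 243 and 375 to 434 CPM. Of the neural markers, Sox1 and Irx3 lie on chromosome 8, and Irx3 carried most of the difference (13.8 CPM in wildtype and 0.912 CPM in Nr6a1-/-), while Pax6, on chromosome 2, was not called (-0.86, SE 0.424, FDR = 0.166). Markers also moved at other stages at which Mycn was called, and not all of these sums are given here. At d2 the epiblast sum was 2120 to 2190 CPM in wildtype and 2930 to 3070 CPM in Nr6a1-/-, and the neural sum 47.7 to 55.7 and 25.1 to 31.5 CPM. At d3 the epiblast sum was 136 to 146 and 179 to 194 CPM, and the endoderm sum 26.6 to 32.4 and 2.98 to 5.99 CPM. At d4G they were 72.6 to 75 and 85.4 to 103 CPM, and 84.7 to 91.5 and 37.3 to 51.9 CPM. The presomitic mesoderm sum was 26.8 to 43 and 50.6 to 69.7 CPM at d3, and 136 to 164 and 237 to 271 CPM at d4G. The NMP sum at d4G was 272 to 288 and 180 to 203 CPM. In d4 Nr6a1-/- cells 1 epiblast marker had no count, and in d4G Nr6a1-/- cells 1 epiblast and 1 neural marker had none. The sum of 6 feeder fibroblast markers was 14.9 to 22.3 CPM in wildtype and 33 to 38.6 CPM in Nr6a1-/- at d2, and 47 to 54.4 and 60.2 to 74.4 CPM at d3. At d4 it was 25.3 to 28.2 and 16.4 to 21.2 CPM, and at d4G the genotypes overlapped. The sum of 4 naive ESC markers at d4 was 21.8 to 25.2 CPM in wildtype and 9.8 to 15.5 CPM in Nr6a1-/-. Of these markers, Zfp42 lies on chromosome 8. The part of these marker differences in the Myc, Mycn or target differences was not tested.

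Only 6 genes were listed as repressed by Myc proteins. Cdkn1a, the p21 cell cycle inhibitor, rose from 102 ± 8.01 CPM at d2 to 565 ± 17.5 CPM at d2.5 in wildtype (2.47, SE 0.0987, FDR = 8.16e-21) and from 90.5 ± 5.81 to 640 ± 41.7 CPM in Nr6a1-/- (2.82, SE 0.0992, FDR = 7.11e-23), the step at which Mycn fell. It fell from d2.5 to d3 (-0.50 in wildtype with SE 0.0893 and FDR = 0.000115, and -0.61 in Nr6a1-/- with SE 0.0882 and FDR = 2.28e-06). It fell again from d3 to d4 (-0.54 in wildtype with SE 0.0903 and FDR = 2.69e-05, and -0.92 in Nr6a1-/- with SE 0.0921 and FDR = 7.1e-10) and rose with Gdf11 (0.88 with SE 0.0899 and FDR = 1.49e-09, and 0.94 with SE 0.0928 and FDR = 5.55e-10). In each of these steps Mycn moved the opposite way to Cdkn1a in both genotypes, but its rise from d2.5 to d3 in wildtype was not called (FDR = 0.179). Other listed genes did not: from d2 to d2.5, Gadd45a fell with Mycn in wildtype (-1.83, SE 0.263, FDR = 1.57e-06) and Ndrg2 in Nr6a1-/- (-1.34, SE 0.338, FDR = 0.00298), both named after their values were seen. At this step wildtype cells had 2 called rises and 1 called fall among the 6 (13.3% and 12.1% of all tested genes), and Nr6a1-/- cells 1 and 1 (12.9% and 11.2%). Between genotypes at d4, 0 of the 6 were higher and 2 lower in Nr6a1-/-, against 9.7% and 9.18% of all tested genes.

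Genes most like each member were ranked by Pearson's r over the 10 group means of log2 CPM among 9730 genes. Closest to Mycn were Cops3 (r = 0.949), a signalosome subunit, and the mitotic genes Ube2c (0.930) and Bub1 (0.922), followed by the translation factor subunit Eif2b5 (0.917) and the histone methyltransferase Kmt5a (0.912). Furthest from it were Clcn7 (-0.961), Rab7 (-0.959) and Hgs (-0.958), all of the endosome and lysosome. Closest to Myc were Cdc123 (0.883), Gja1 (0.873), Fem1a (0.871), Cdr2 (0.860) and 2610318N02Rik (0.852), and furthest Urb1 (-0.945), Atm (-0.908) and Lama5 (-0.884). Closest to Mycl were Atp6ap2 (0.940), Sypl (0.935), Col27a1 (0.934), Mfsd1 (0.933) and T (0.932), the mesoderm and NMP factor Brachyury, and furthest Bcl2l11 (-0.942), Sestd1 (-0.939) and Ptma (-0.925). With r taken over the 30 libraries, 1 of 5 closest genes was shared for each member, so the lists depend on how likeness is measured.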

How the data were processed

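The deposited values are whole-number read counts for each gene, which the authors made from 3′-end, poly(A)-primed libraries with sample indices and molecular identifiers. The submitters' processing notes name STAR, edgeR and the build mm10. Versions, annotation, counter, use of strand and collapsing of identifiers are not given in the sources used here. Amplified copies may therefore be counted, and limits cover counting error only. The authors' tables of genes that differ between genotypes (CPM, log2 fold changes, p-values) were not used.

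All 30 libraries were matched by name, with 0 columns left over. A gene was tested where 2 or more libraries of the same group exceeded both 10 counts and 2 CPM (12149 of 54134 rows, at least 99.2% of each library's counts). Counts were scaled by TMM and fitted with glmQLFit and glmQLFTest of edgeR 4.0.16 in R 4.3.3 as 1 model of 10 groups with 20 residual degrees of freedom, 2-sided, for 17 comparisons. Genes with FDR below 0.05 were called. The script was tested on simulated data.

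No pair of replicates held the same counts, and p-values measure only the spread between these libraries, which the labels do not tie to separate cultures. Same-numbered libraries did not deviate together (r from -0.111 to 0.163 over 39 pairs), so no block was used. CPM values are TMM-scaled. Pearson's r used log2 CPM with a prior count of 2. Positions come from GENCODE M21 and promoter windows from RefSeq.

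The members, the gene lists, compiled from general knowledge, and the tests were chosen with earlier results of these data known. Named genes are the members, the network list, the 3 largest called rises and falls of each other list per comparison that averaged 10 CPM or more in a compared group, and the 5 most and 3 least like each member, not all of which are printed, and 1 named gene is not reported here. Alternatives were RLE factors, no factors, no filter, thinning to the smallest total, only the libraries compared, DESeq2 1.42.0, a replicate block and leaving out each library.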

Additional observations from a re-analysis of the deposited data

Results flagged for a closer look

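The change of Myc from d4 to d4G differed between genotypes (Nr6a1-/- minus wildtype 1.26 on the log2 scale, edgeR FDR = 0.0222), with the reliance on single libraries given in the report. Several listed genes were also called in such a test of the difference between genotypes in a step, all by edgeR over the 12149 genes.

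Among targets raised by Myc proteins, the changes of Ccnd2 (1.05) and Tfrc (0.65) from d2 to d2.5, and of Shmt2 (0.86) from d2.5 to d3, were higher in Nr6a1-/- cells. From d3 to d4 the change of Ccnd2 was higher (1.15), and those of Ndufaf4 (-1.04), Srm (-1) and Ddx21 (-0.84) were lower in Nr6a1-/- cells. From d4 to d4G the changes of Srm (1.17), Tmem97 (0.98) and Ddx21 (0.66) were higher and that of Ccnd2 (-0.69) lower. Srm, Ddx21 and Ccnd2 thus differed in both steps with opposite signs, and both tests share the d4 libraries.

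Outside that list, the change of Gsk3b from d3 to d4 was higher in Nr6a1-/- cells (0.53). Of the genes repressed by Myc proteins, the change of Gadd45a from d2 to d2.5 was higher in Nr6a1-/- cells (1.54) and that of Ndrg1 from d4 to d4G lower (-2.04), with Ndrg1 at 17.3 ± 6.82 CPM in d4G wildtype and 2.5 ± 1.59 CPM in d4G Nr6a1-/- libraries (SD, n = 3).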

How the results depend on the processing

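Outside leave-one-out, 406 values answering a comparison kept their direction and side of the threshold (counts, within 1.5 times), while 9 changed sign, 5 lost a call and 7 counts moved further. Of the other values, 148 were kept and 23 moved further. Every called difference of Mycn between genotypes at d2, d3 and d4, of Myc at d4, and every called step of Mycn was kept under every alternative run. With no normalization factors, no filter and thinning, the call of Myc from d2 to d2.5 in Nr6a1-/- was lost (-0.60, -0.63 and -0.54), as was that of Mycn at d4G with no factors (0.40) and no filter (0.41). The fitted difference of Mycl between genotypes, near 0, changed sign at d2.5 with no factors (-0.0022) and only the libraries compared (-0.014), and at d4 with RLE (-0.0045), no factors (-0.0034), thinning (-0.065), only the libraries compared (-0.015) and DESeq2 (-0.019). With thinning, the genotype difference in the step changed sign for Myc from d2 to d2.5 (-0.0055) and Mycl from d2.5 to d3 (-0.14). Of the activated targets, 3 were lower at d2 with no factors and with DESeq2, 1 was higher at d2 with thinning, 0 were higher at d2 and 0 lower at d3 with no filter, and 2 were higher and 6 lower at d4 with only the libraries compared. The cause was not tested.

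With each library left out, Myc ranged from -1.04 to -0.37 (wildtype) and -0.71 to -0.57 (Nr6a1-/-) from d2 to d2.5, from -0.43 to 0.26 from d2.5 to d3 in wildtype, from 0.75 to 0.94 from d3 to d4 in Nr6a1-/- and from -0.29 to 0.11 between genotypes at d3. Mycn ranged from 0.33 to 0.52 between genotypes at d4G. Mycl ranged between genotypes from -0.096 to 0.11 at d2.5, -0.011 to 0.26 at d3, -0.40 to 0.30 at d4 and -0.25 to 0.046 at d4G, and in Nr6a1-/- from -0.90 to -0.19 from d3 to d4 and -0.12 to 0.59 from d4 to d4G. The genotype difference in a step ranged from -0.28 to 0.39 (d2.5 against d2) and 1.15 to 1.43 (d4G against d4) for Myc, from -0.052 to 0.19 (d4 against d3) for Mycn, and from -0.014 to 0.27, -0.50 to 0.19 and -0.42 to 0.29 for Mycl from the step d3 against d2.5 onwards. Activated targets higher ranged from 0 to 3 at d2, 6 to 8 at d3, 3 to 6 at d4 and 2 to 4 at d4G, and lower from 3 to 4 at d2, 0 to 1 at d3 and 10 to 17 at d4.

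Numbers shared between groups come from the labels, and with the replicate number as a block (Mycn 0.91 at d4) no call of a member changed. Over all genes the block moved calls by over 1.5 times in the genotype difference of the steps d2.5 against d2 (117 against 74) and d3 against d2.5 (149 against 99). The low counts of Myc and Mycl limit how small a difference could be called.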
